A study of Mus musculus with 12 samples.

Results

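The genes described here encode the SETD1 histone methyltransferase complexes, together with Bod1l, the gene deleted in the study, and its smaller relative Bod1. They are Bod1l, Bod1, Setd1a, Setd1b, Cxxc1, Wdr82, Hcfc1, Wdr5, Ash2l and Rbbp5. These 10 were taken by their gene names out of the 41079 gene identifiers in the tables, and all 10 were among the 14107 genes that passed the filter on low abundance (mean of at least 1 TPM over 12 libraries). TPM is an abundance scaled by transcript length and to a fixed total in each library, so levels of different genes may be set side by side.

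The cells were mouse embryonic stem cells, a pluripotent cell type derived from the early embryo, and their RNA was sequenced in 4 groups of 3 libraries. The groups were wild type without drug, wild type with etoposide, Bod1L KO without drug and Bod1L KO with etoposide, a topoisomerase II poison that leaves double-strand breaks in DNA. The sample titles name tamoxifen for both knockout groups and for neither wild-type group, so the loss of Bod1l and exposure to tamoxifen cannot be told apart in any comparison of genotypes. The labels give no dose or length of the etoposide treatment, do not say which exons were deleted or how many clones were used, and call the replicates biological without describing separate cultures, so the p-values reflect library-to-library spread only.

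SETD1A and SETD1B are the mammalian counterparts of yeast Set1 and add methyl groups to lysine 4 of histone H3, the trimethylated form of which marks active promoters. Each assembles with a core of WDR5, RBBP5, ASH2L and DPY30, which the related MLL methyltransferases also use, and with CXXC1, WDR82 and HCFC1, of which CXXC1 and WDR82 are typical of the SETD1 complexes. BOD1L, a very large protein that resembles BOD1 at one end, associates with SETD1A and protects stalled replication forks from degradation.

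Promoter sequences of 3 genes whose RNA fell with etoposide (Hcfc1, Wdr82, Wdr5) and of a pair whose RNA did not pass that test (Setd1a, Bod1) are shown so that the members can be compared at the sequence level. They are from RefSeq on GRCm38.p6, an older build than the GRCm39 of the expression tables, and 7 of the 10 genes matched an entry. Setd1b, which also fell with etoposide, was not among the 7. Bod1l and Rbbp5, which did not pass that test either, were among the 7 but are not printed. Each line gives the 180 bases before the annotated start, 5′ to 3′ on the gene's strand, at chrX:73966358-73966537 (minus strand) for Hcfc1, chr9:106170749-106170928 (plus) for Wdr82, chr2:27514967-27515146 (plus) for Wdr5, chr7:127777209-127777388 (plus) for Setd1a and chr11:31671863-31672042 (minus) for Bod1. Capitals mark matches, on either strand, to 6 motifs: AAGATGGCG (YY1), CTACAANTC (ZNF143/THAP11), TGACGTCA (CREB/ATF), CCGGAAG (ETS), GGGCGG (SP/KLF) and GCGCANGCG (NRF1).
Hcfc1: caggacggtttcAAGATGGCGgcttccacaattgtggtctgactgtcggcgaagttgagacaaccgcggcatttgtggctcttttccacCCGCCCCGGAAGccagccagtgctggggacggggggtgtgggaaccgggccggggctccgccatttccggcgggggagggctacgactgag
Wdr82: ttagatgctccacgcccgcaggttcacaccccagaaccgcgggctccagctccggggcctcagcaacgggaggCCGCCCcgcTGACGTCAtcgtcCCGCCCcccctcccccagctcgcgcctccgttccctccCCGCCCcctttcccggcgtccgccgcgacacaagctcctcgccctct
Wdr5: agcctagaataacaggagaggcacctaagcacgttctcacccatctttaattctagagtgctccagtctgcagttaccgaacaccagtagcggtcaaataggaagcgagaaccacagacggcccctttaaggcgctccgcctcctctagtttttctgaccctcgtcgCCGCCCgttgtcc
Setd1a: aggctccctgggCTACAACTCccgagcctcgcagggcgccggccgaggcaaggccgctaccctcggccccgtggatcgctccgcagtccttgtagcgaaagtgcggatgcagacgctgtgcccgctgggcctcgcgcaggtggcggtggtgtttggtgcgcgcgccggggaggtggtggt
Bod1: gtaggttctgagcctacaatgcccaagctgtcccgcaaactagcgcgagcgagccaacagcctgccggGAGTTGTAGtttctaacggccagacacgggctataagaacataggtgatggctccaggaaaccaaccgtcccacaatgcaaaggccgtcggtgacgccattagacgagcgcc
The YY1 motif was also found just after the start of Wdr82, at chr9:106170940-106170963, and of Hcfc1, at chrX:73966317-73966340.
Wdr82, after the start: tcccttcAAGATGGCGgacacaat
Hcfc1, after the start: gcggctcAAGATGGCGgctcccag

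Hcfc1 thus held AAGATGGCG at 2 places, 168 bases before the start and 24 bases after it, and Wdr82 held it 18 bases after the start. The motif occurs in 1.4% of the 32851 mouse promoter entries of the same length (250 bases before to 50 after the start). Setd1a and Bod1 both held CTACAANTC, 168 and 112 bases before the start, a motif found in 1.42% of entries. HCFC1 itself is known to be recruited to promoters by THAP11 and ZNF143. Bod1l and Rbbp5, which likewise did not pass for etoposide, held neither AAGATGGCG nor CTACAANTC. Wdr5, which fell with the drug, also held neither. A link between these motifs and the drug response was not tested. Wdr82 alone of the 7 held TGACGTCA (1.79% of entries), and Wdr5 alone held GCGCANGCG (6.25%), 8 bases after the start. CCGGAAG was found in Bod1l and Hcfc1 (8.86% of entries), where in Hcfc1 it overlaps a reverse GGGCGG by a base, and GGGCGG in Bod1l, Wdr82, Hcfc1 and Wdr5 (35.66%). A second GGGCGG of Wdr5 spans the start and is not capitalised. All 7 promoters held more CG than the median of 7 over all entries. They ran from 16 in Rbbp5 (percentile 67.8 of all entries) to 35 in Setd1a (percentile 93.4), so many other promoters hold as many. The motifs were chosen after the sequences had been seen, and a match is a description of letters only.

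In untreated wild-type cells the 10 genes spanned a wide range of abundance. Ash2l (365 ± 3.90 TPM, mean ± SD, n = 3) and Wdr5 (358 ± 4.06), both shared with the MLL complexes, stood highest, and their ranges overlapped. Hcfc1 (173 ± 1.43), Wdr82 (151 ± 1.30), Setd1a (99.6 ± 1.01), Rbbp5 (78.1 ± 1.80) and Bod1 (74.8 ± 2.63) followed in that order, each with a range apart from the next. Cxxc1 (52.8 ± 3.42) and Bod1l (49.3 ± 1.12) overlapped. Setd1b was the lowest of the 10 at 18.0 ± 0.846 TPM. Thus Wdr5 and Ash2l exceeded both catalytic subunits, Rbbp5 lay between Setd1a and Setd1b, and the Setd1a transcript was several times as abundant as that of its paralogue. The order in treated wild type was the same, except that Rbbp5 and Bod1 overlapped. In both knockout groups Bod1l stood last, below every library of Setd1b. These orders are of TPM. By coverage scaled for library depth, an alternative chosen after the data were seen and described with Ash2l, untreated wild-type libraries read 31.6 to 33.8 for Rbbp5, below Bod1 (71.8 to 76.6), Cxxc1 (48.8 to 55.5) and Bod1l (46.0 to 49.2), and 166 to 170 for Wdr5, below Ash2l (233 to 235).

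**Figure D1:**
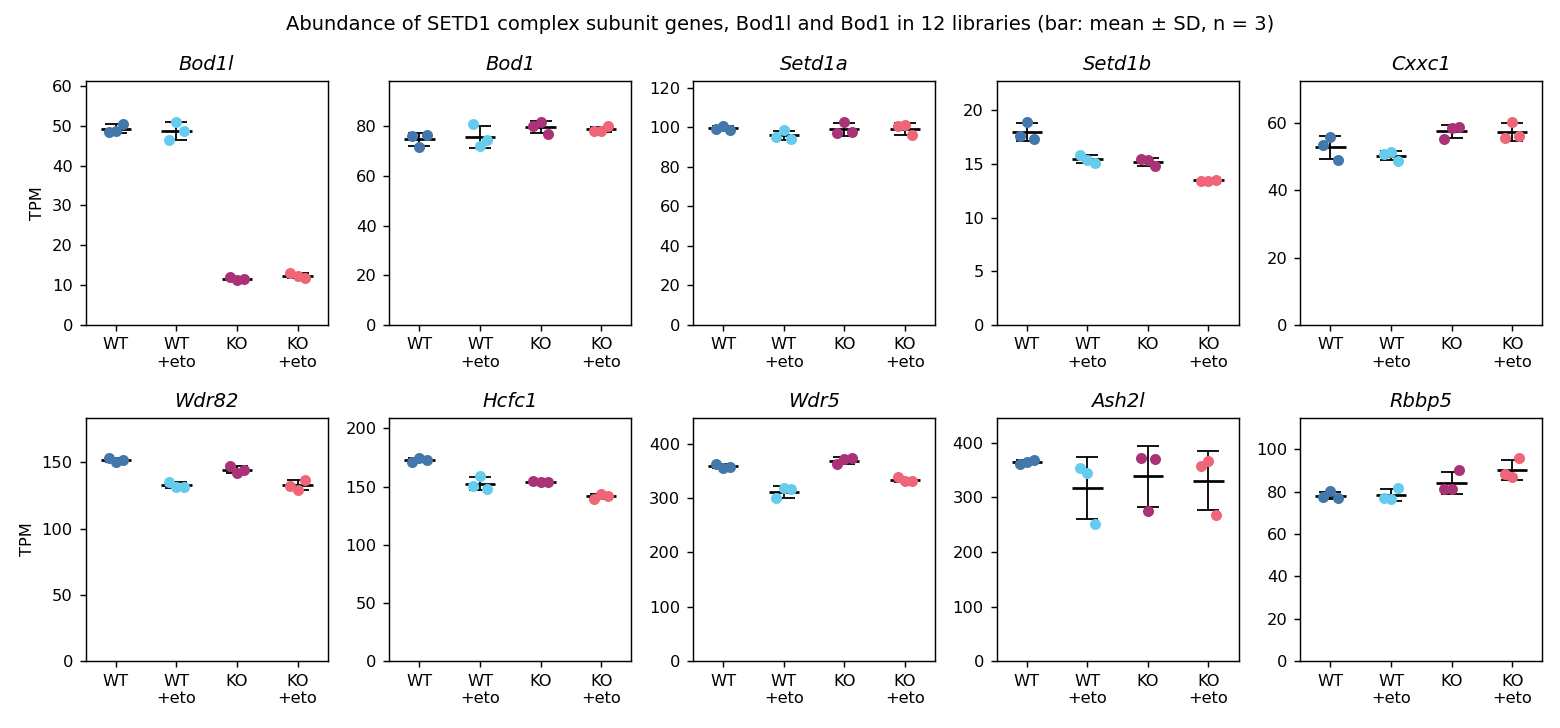
Abundance in TPM (vertical axis, from 0, own scale for each gene) of the 10 genes in wild type (WT) and knockout (KO) cells, without or with etoposide (+eto). Points are libraries and bars the mean ± SD (n = 3). Bod1l is near 49 TPM in wild type and near 12 TPM in the knockout, Setd1b is lowest in the treated knockout, and Ash2l has a low library in 3 of the 4 groups.

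Bod1l RNA was lower in the knockout, though not absent. In untreated wild type it measured 48.5, 48.8 and 50.6 TPM and in treated wild type 46.5, 51.1 and 48.6 TPM. In the untreated knockout it measured 12.0, 11.2 and 11.5 TPM and in the treated knockout 13.0, 12.4 and 11.7 TPM. All 6 knockout libraries lay far below all 6 wild-type libraries. In bulk RNA, here and for the genes that follow, fewer expressing cells and less RNA per cell cannot be told apart. The difference of log2(TPM + 1) was -2.00 ± 0.05 (SE) without drug (limma, Benjamini-Hochberg adjusted p = 1.68e-10) and -1.90 ± 0.05 with etoposide (adjusted p = 2.37e-10), so that 23.5% and 25.3% of the wild-type level was left. In the untreated comparison only 14 of the 14107 genes tested had a lower difference. Since the deleted part is not given and the tables hold 1 value for the whole gene (chromosome 5, 41944881 to 42001695, minus strand, GRCm39), whether the remaining RNA encodes protein was not tested. Etoposide did not change Bod1l detectably in wild type (log2 difference -0.02, 95% interval -0.12 to 0.09, adjusted p = 0.827 by limma) or in the knockout (0.09, -0.02 to 0.19, adjusted p = 0.222).

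The 3 genes whose pattern over the 12 libraries was most like that of Bod1l, by the root mean square difference of log2(TPM + 1) after centring each gene on its mean, were Mmachc (0.0868), Tfb1m (0.0869) and Lyplal1 (0.0970). Mmachc, which processes cobalamin, stood at 55.4 ± 0.802 TPM in untreated wild type and 13.5 ± 0.410 TPM in the untreated knockout. Tfb1m, a methyltransferase of mitochondrial ribosomal RNA, stood at 27.6 ± 0.844 and 5.98 ± 0.511 TPM, and Lyplal1, a lysophospholipase-like protein, at 35.9 ± 1.80 and 9.23 ± 0.400 TPM. With etoposide the corresponding levels were 55.1 and 15.6 TPM for Mmachc, 29.2 and 7.02 for Tfb1m and 37.3 and 9.41 for Lyplal1. The 3 genes were picked by likeness to Bod1l over these same libraries. Their separation by genotype therefore follows from the choice and is not a further result. The same 3 genes were nearest with a pseudocount of 0.1.

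Bod1, whose protein inhibits a form of the phosphatase PP2A during mitosis, did not pass the test in any comparison. It measured 76.0, 71.7 and 76.5 TPM in untreated wild type and 80.3, 81.9 and 77.1 TPM in the untreated knockout. The knockout libraries all lay above the wild-type ones, but by little (log2 difference 0.09 ± 0.04 SE, 95% interval -0.00 to 0.19, limma adjusted p = 0.0931). The treated libraries overlapped between genotypes, at 80.9, 72.0 and 74.5 TPM in wild type and 78.3, 78.1 and 80.0 TPM in the knockout (0.06, -0.04 to 0.15, adjusted p = 0.308). Leaving out treated wild-type replicate 1, the highest of its group, brought the untreated difference under the threshold (adjusted p = 0.0451). With Bod1l reduced and Bod1 near its level, the ratio of Bod1 to Bod1l TPM went from 1.52 ± 0.0483 in untreated wild type to 6.91 ± 0.375 in the untreated knockout, and from 1.56 ± 0.167 to 6.39 ± 0.387 under etoposide.

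Across the 10 genes, 4 passed the test as lower and none as higher in the untreated knockout, against 21.5% and 28.1% of all genes tested. Those 4 were Bod1l, Setd1b, Hcfc1 and Wdr82. Under etoposide 3 were lower (Bod1l, Setd1b, Hcfc1) and 3 higher (Cxxc1, Wdr5, Rbbp5), against 21.7% and 22.5% of all genes. Bod1l is the deleted gene, so its calls between genotypes followed from the design. Without it, 3 of 9 genes were lower and none higher untreated, and 2 were lower and 3 higher under etoposide. Etoposide itself lowered 4 and raised none in wild type, where 13.5% of all genes were lower and 20.8% higher. It lowered 4 and raised none in the knockout, where 10.5% were lower and 14.5% higher. Setd1b, Wdr82, Hcfc1 and Wdr5 made up the 4 in both genotypes. The median log2 difference over the 10 was -0.04 in the untreated comparison of genotypes and 0.05 in the treated one, beside 0.04 and 0.02 over all genes. Without Bod1l these medians were -0.01 and 0.06. For etoposide the median over the 10 was -0.12 in wild type and -0.03 in the knockout, beside 0.02 and 0.00. Apart from Bod1l, no difference exceeded 0.23 in size in these comparisons, and the median size over all genes was 0.18 in the untreated comparison of genotypes. The comparisons share libraries: each group enters more than 1 of them.

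**Figure D2:**
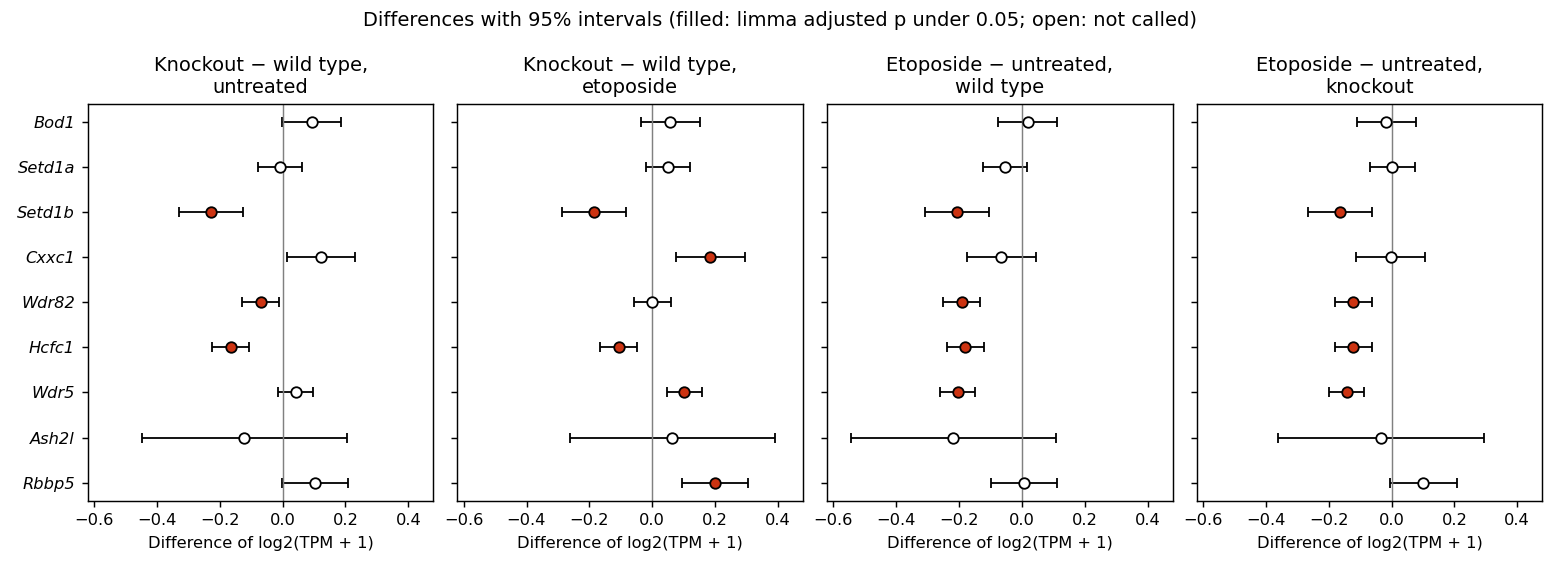
Differences of log2(TPM + 1) with 95% intervals (horizontal axis) for 9 genes in the 4 comparisons between groups. Bod1l, at -2.00 and -1.90 between genotypes, is left out so that the scale shows the others. Filled points have a limma adjusted p under 0.05; Setd1b and Hcfc1 are filled and to the left of 0 in all 4 panels, and the intervals of Ash2l are the widest.

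The catalytic subunits parted. Setd1a (chromosome 7, 127376561 to 127399294, GRCm39) showed no detectable difference, whereas Setd1b (chromosome 5, 123280109 to 123306693) was lower in the knockout and lower again with etoposide. Without drug, Setd1a measured 99.4, 101 and 98.7 TPM in wild type and 97.0, 103 and 97.4 TPM in the knockout. With etoposide it measured 95.1, 98.6 and 94.0 TPM in wild type and 101, 101 and 95.9 TPM in the knockout. Its groups overlapped, apart from a small gap between treated and untreated wild type. The difference between genotypes was -0.01 without drug (95% interval -0.08 to 0.06, limma adjusted p = 0.861) and 0.05 with it (-0.02 to 0.12, adjusted p = 0.238). The etoposide difference was -0.05 in wild type (-0.13 to 0.02, adjusted p = 0.225) and 0.00 in the knockout (-0.07 to 0.07, adjusted p = 0.965).

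Setd1b measured 17.6, 19.0 and 17.4 TPM in untreated wild type and 15.9, 15.3 and 15.1 TPM in treated wild type. It measured 15.5, 15.3 and 14.8 TPM in the untreated knockout and 13.4, 13.4 and 13.5 TPM in the treated knockout. All untreated wild-type libraries lay above every other library, and all treated knockout libraries below, while the drug-treated wild type overlapped the untreated knockout. In the untreated knockout 84.6% of the wild-type level was found (log2 difference -0.23 ± 0.05 SE, limma adjusted p = 0.00164), and under etoposide 87.2% (-0.19 ± 0.05, adjusted p = 0.00697). Etoposide left 85.9% in wild type (-0.21 ± 0.05, adjusted p = 0.00455) and 88.5% in the knockout (-0.16 ± 0.05, adjusted p = 0.0221). The last of these calls was lost when untreated knockout replicate 1 (adjusted p = 0.0699) or 2 (0.0603) or treated knockout replicate 1 (0.0598) or 2 (0.0579) was left out, and when only the compared groups were fitted (0.0578). From untreated wild type to the treated knockout the mean fell to 74.9%.

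The ratio of Setd1a to Setd1b within a library, which does not depend on how libraries are scaled to one another, was 5.63, 5.31 and 5.68 in untreated wild type (5.54 ± 0.201, mean ± SD, n = 3). Wild-type libraries with drug gave 5.995, 6.42 and 6.21 (6.21 ± 0.214), and untreated knockout libraries 6.26, 6.71 and 6.58 (6.52 ± 0.235). Knockout libraries with drug gave 7.51, 7.53 and 7.08 (7.37 ± 0.255). The ranges of untreated wild type and of the treated knockout stood apart from all others, and those of the remaining groups overlapped. From the read coverage of the same genes the mean ratios, in that order of groups, were 5.63, 6.31, 6.62 and 7.50. No test was made of this ratio.

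**Figure D3:**
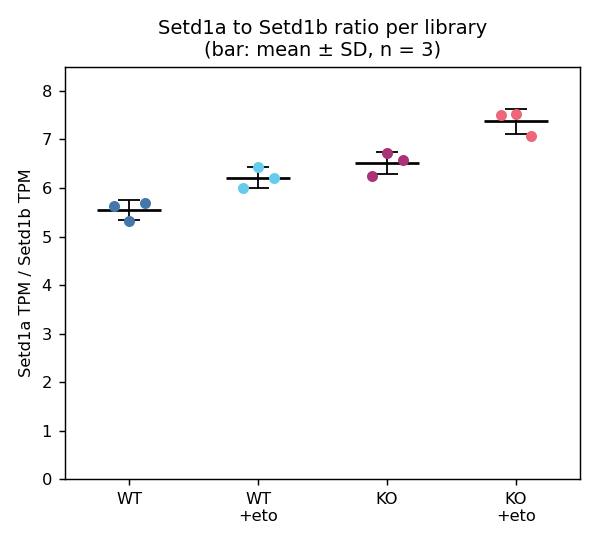
Ratio of Setd1a TPM to Setd1b TPM (vertical axis, from 0) in each library of the 4 groups, with the mean ± SD (n = 3). Untreated wild type lies between 5.31 and 5.68 and the treated knockout between 7.08 and 7.53, with the other groups in between.

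Among the subunits typical of SETD1 complexes, Cxxc1 and Wdr82 went different ways. Cxxc1 encodes CFP1, which binds unmethylated CG dinucleotides and brings the complex to CG-rich promoters. It measured 53.6, 55.7 and 49.0 TPM in untreated wild type and 55.2, 58.4 and 58.9 TPM in the untreated knockout, ranges that overlapped (log2 difference 0.12 ± 0.05 SE, limma adjusted p = 0.0593). With etoposide it measured 50.9, 51.4 and 48.8 TPM in wild type and 55.5, 60.4 and 56.3 TPM in the knockout. All treated knockout libraries were above all treated wild-type libraries, and the difference passed the test (0.19 ± 0.05, adjusted p = 0.0101, 114% of wild type). The untreated difference passed as well without untreated wild-type replicate 2 (adjusted p = 0.0270), without untreated knockout replicate 1 (0.0431) or with the replicate number as a block (0.0405). Etoposide did not change Cxxc1 detectably (-0.07, adjusted p = 0.351 in wild type; -0.00, adjusted p = 0.976 in the knockout).

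Wdr82, which tethers the SETD1 enzymes to the phosphorylated tail of RNA polymerase II, fell with etoposide. It measured 153, 150.2 and 151 TPM in untreated wild type and 135, 131 and 131 TPM in treated wild type. It measured 147, 142 and 144 TPM in the untreated knockout and 132, 129 and 137 TPM in the treated knockout. Treated libraries lay below untreated ones of the same genotype, without overlap, at 87.5% in wild type (log2 difference -0.19 ± 0.03 SE, limma adjusted p = 0.000145) and 91.9% in the knockout (-0.12 ± 0.03, adjusted p = 0.00559). Between the treated groups no difference was detected (0.00, 95% interval -0.06 to 0.06, adjusted p = 0.989). Without drug Wdr82 was lower in the knockout, at 95.3% of wild type, by a margin close to the threshold (-0.07 ± 0.03, adjusted p = 0.0495). That call was lost in 9 of 12 fits that left out a library: untreated wild-type replicates 1 (adjusted p = 0.125), 2 (0.0755) and 3 (0.0927), treated wild-type replicates 1 (0.0506), 2 (0.0593) and 3 (0.0601), untreated knockout replicates 2 (0.157) and 3 (0.0951) and treated knockout replicate 1 (0.0612). It was lost too with no filter on low values (0.0581), a robust spread (0.0517) or the compared groups alone (0.0609).

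Hcfc1, a cofactor that links several transcription factors to chromatin-modifying enzymes, was lower in every comparison made between groups. It measured 171, 174 and 173 TPM in untreated wild type and 150.3, 159 and 148 TPM in treated wild type. It measured 154.5, 154 and 153.5 TPM in the untreated knockout and 139, 144 and 142 TPM in the treated knockout. As for Setd1b, untreated wild type stood above and the treated knockout below all other libraries, with an overlap between treated wild type and untreated knockout. The knockout held 89.1% of the wild-type level without drug (log2 difference -0.16 ± 0.03 SE, limma adjusted p = 0.000341) and 92.8% under etoposide (-0.11 ± 0.03, adjusted p = 0.00735). The drug left 88.2% in wild type (-0.18 ± 0.03, adjusted p = 0.000249) and 91.9% in the knockout (-0.12 ± 0.03, adjusted p = 0.0059). The treated knockout held 81.9% of the untreated wild-type mean.

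Of the core shared with the MLL complexes, Wdr5, a scaffold that joins the catalytic subunit to the rest, fell with etoposide. It measured 363, 356 and 356 TPM in untreated wild type and 299, 318 and 316 TPM in treated wild type. It measured 362, 372 and 373 TPM in the untreated knockout and 338, 331 and 332 TPM in the treated knockout. The drug lowered it without overlap to 86.8% in wild type (log2 difference -0.20 ± 0.03 SE, limma adjusted p = 5.1e-05) and 90.5% in the knockout (-0.14 ± 0.03, adjusted p = 0.00127). The untreated genotypes overlapped (0.04, 95% interval -0.01 to 0.10, adjusted p = 0.198), while with etoposide Wdr5 was higher in the knockout, at 107% of wild type (0.10 ± 0.03, adjusted p = 0.00623).

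Rbbp5, which stimulates the methyltransferases together with ASH2L, had the largest log2 difference of the members that rose in the knockout under etoposide. It measured 77.3, 80.2 and 76.8 TPM in untreated wild type and 81.1, 81.1 and 90.1 TPM in the untreated knockout. The knockout libraries were the higher ones, with a difference that did not pass the test (log2 difference 0.10 ± 0.05 SE, limma adjusted p = 0.0924). With etoposide it measured 77.1, 76.6 and 81.6 TPM in wild type and 88.2, 87.0 and 95.7 TPM in the knockout, at 115% of wild type (0.20 ± 0.05, adjusted p = 0.00541). Etoposide gave no detectable change in wild type (0.01, adjusted p = 0.945). In the knockout the etoposide difference was 0.10 (adjusted p = 0.152), which passed the test when untreated knockout replicate 3, the highest of its group, was left out (0.15, adjusted p = 0.033).

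Ash2l, whose protein binds RBBP5 and DPY30 in the core, was spread far more than the other 9 genes within every group but untreated wild type. It measured 361, 364 and 369 TPM in untreated wild type and 354, 345 and 252 TPM in treated wild type. It measured 371, 275 and 369 TPM in the untreated knockout and 357, 367 and 268 TPM in the treated knockout. Treated wild-type replicate 3, untreated knockout replicate 2 and treated knockout replicate 3 were low, at 252 to 275 TPM, and the other 9 libraries lay between 345 and 371 TPM. No Ash2l difference passed the test on TPM (limma adjusted p = 0.525 and 0.765 between genotypes, 0.294 and 0.9 for etoposide), with standard errors of 0.15.

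The read coverage of Ash2l did not show that split. Coverage, the mean read depth over a gene, and FPKM, a length-scaled abundance, stand in a fixed ratio set by library depth for genes counted over 1 length. For Ash2l this ratio, divided by the depth of the library, was 0.908 to 0.919 in the 3 low libraries and 0.638 to 0.679 in the other 9. Ash2l has 11 annotated transcripts in GENCODE vM21, of which 5 are protein coding and 2134 to 3307 bases long. Coding transcripts of Setd1a (315 to 6487 bases) and Setd1b (648 to 8857 bases) span a wider range, and the ratios of both genes were nearly constant. Annotated lengths do not show which transcripts were counted in a library. Coverage scaled for library depth and brought to the TPM total lay between 227 and 251 in all 12 libraries, a spread of 1.10 times from the lowest to the highest against 1.47 times for TPM. Which transcripts StringTie used in each library was not tested.

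**Figure D4:**
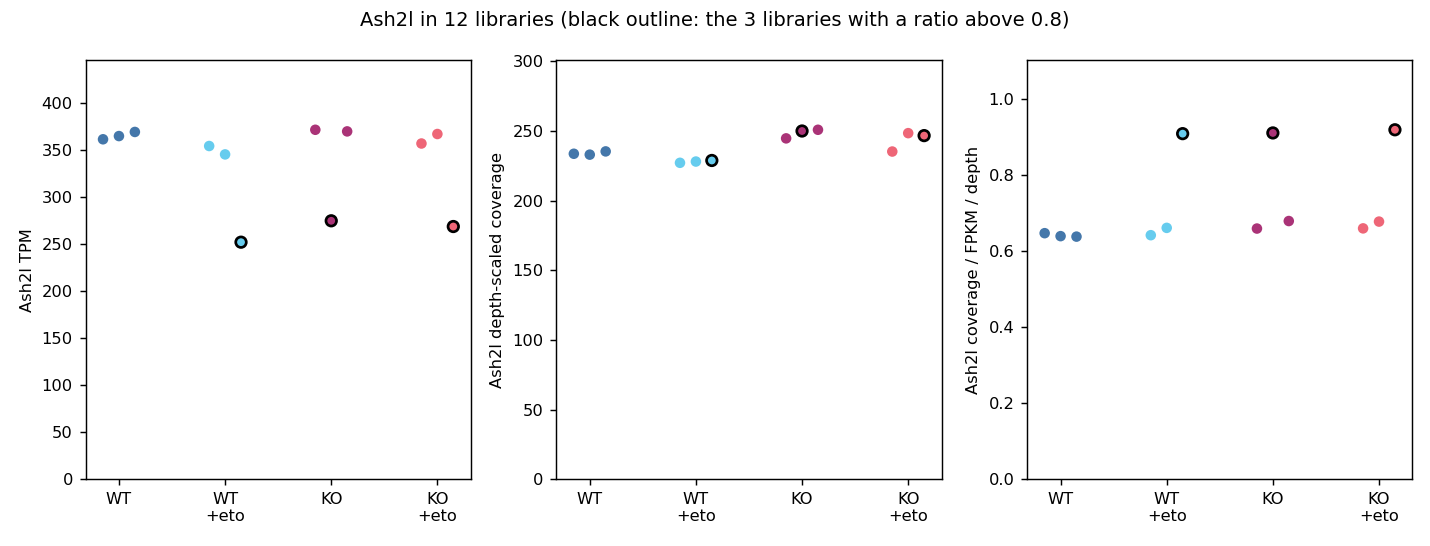
Ash2l TPM (left), depth-scaled coverage (middle) and the ratio of coverage to FPKM divided by library depth (right, no unit) in the 12 libraries, all axes from 0. The 3 libraries with a ratio above 0.8, outlined in black, are those with 252 to 275 TPM, and their depth-scaled coverage lies within the range of the others.

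On the depth-scaled coverage, an alternative chosen after the TPM values were seen, Ash2l was higher in the knockout. Without drug the wild-type libraries read 234, 233 and 235 and the knockout libraries 245, 249.9 and 251. With etoposide they read 227, 228 and 229 in wild type and 235, 248 and 247 in the knockout. Knockout libraries lay above wild-type libraries of the same treatment, with a log2 difference of 0.09 both without drug (limma adjusted p = 0.00548) and with it (adjusted p = 0.00393). Rbbp5, whose ratio of coverage to FPKM also varied (0.401 to 0.473), read 33.8, 32.1 and 31.6 in untreated wild type and 38.4, 36.3 and 38.1 in the untreated knockout. On the coverage scale its untreated difference passed the test (0.21, adjusted p = 0.000252), as did its treated one (0.18, adjusted p = 0.000819). Wdr82 was then no longer called between the untreated genotypes (-0.05, adjusted p = 0.0517). The ratio was nearly constant for Wdr5 (0.467 to 0.471), Setd1a and Bod1 (both 1.00), Setd1b (0.983 to 0.985) and Cxxc1 (0.995 to 0.997), and varied by up to 1.05 times for Bod1l, Wdr82 and Hcfc1.

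Whether the etoposide change differed between genotypes was tested as an interaction. By limma none of the 10 genes passed (adjusted p = 0.537 to 0.888), none had an unadjusted p under 0.05, and 1.23% of all genes tested were called. The smallest unadjusted p was that of Wdr82 (0.0918), with an interaction of 0.07 (95% interval -0.01 to 0.15). The intervals for Setd1b (0.04, -0.10 to 0.19), Hcfc1 (0.06, -0.02 to 0.14) and Wdr5 (0.06, -0.02 to 0.14) likewise included 0. A call in only one treatment or genotype, as for Cxxc1, Wdr5 and Rbbp5, is therefore not shown to be specific to it.

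Dpy30, the remaining core subunit, is not among the 10 and was followed as a related gene. It measured 434, 456 and 420.1 TPM in untreated wild type and 404, 413 and 393 TPM in the untreated knockout. The knockout was lower without overlap (log2 difference -0.11 ± 0.04 SE, limma adjusted p = 0.044), and lower also under etoposide (-0.14 ± 0.04, adjusted p = 0.0187). The untreated call was lost in several fits that left out a library: untreated wild-type replicates 1 (adjusted p = 0.0781) and 2 (0.166), treated wild-type replicate 3 (0.052), untreated knockout replicates 1 (0.082) and 3 (0.133) and treated knockout replicates 1 (0.0551) and 2 (0.0503). It was lost too with no filter on low values (0.102), quantile normalization (0.082) and the replicate block (0.0535). Dpy30 thus differed from Wdr5 and Rbbp5, which were higher in the treated knockout.

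Genes that work beside the SETD1 complexes were taken from 7 lists of known partners and of enzymes and readers of H3K4 methylation. Between the untreated genotypes 49.6% of all genes were called, 28.1% as higher and 21.5% as lower. Of 10 genes of the MLL complexes, 3 were higher and 2 lower in the untreated knockout (median log2 difference 0.05, beside 0.04 over all genes). The methyltransferases Kmt2a (0.24 ± 0.05 SE, limma adjusted p = 0.000986) and Kmt2b (0.15 ± 0.03, adjusted p = 0.00323) were higher. Pagr1a, a subunit of the MLL3/4 complexes, was lower (-0.48 ± 0.05, adjusted p = 7.76e-06), as was Men1 (-0.12 ± 0.04, adjusted p = 0.0209). Among 5 demethylases of lysine 4 of histone H3, of any methylation state (list median 0.04), none was higher and 2 were lower. They were Kdm5b (-0.31 ± 0.03, adjusted p = 1.46e-06) and Kdm1a (-0.12 ± 0.02, adjusted p = 0.000482). Both were lower with etoposide too, in wild type and in the knockout.

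Histone H2B ubiquitylation, which the PAF1 complex promotes, precedes H3K4 methylation by SETD1 enzymes. Of 11 genes in that list, 5 were higher and none was lower in the untreated knockout, against 28.1% and 21.5% of all genes. Under etoposide 5 were higher and none was lower, against 22.5% and 21.7% of all genes. The list medians were 0.08 and 0.07, beside 0.04 and 0.02 over all genes. Without drug the higher ones included Skic8 (0.28 ± 0.03, limma adjusted p = 3.07e-05), Ctr9 (0.25 ± 0.04, adjusted p = 9.41e-05) and Paf1 (0.19 ± 0.04, adjusted p = 0.0028), all subunits of that complex, and Ube2a (0.22 ± 0.04, adjusted p = 0.00095), a ubiquitin-conjugating enzyme. Paf1 did not pass under etoposide (0.07, adjusted p = 0.195), where Rnf20, a ubiquitin ligase for H2B outside the naming rule, did (0.13 ± 0.04, adjusted p = 0.0322). Neither gene passed for the interaction (limma adjusted p = 0.5 for Paf1 and 0.467 for Rnf20). Neither call is therefore shown to be specific to a treatment. Of 6 other partners of WDR82, 1 was higher and 3 were lower (median -0.06). Zc3h4, with which WDR82 restrains transcription outside genes, was lower (-0.27 ± 0.04, adjusted p = 0.000255), as were the phosphatase subunits Ppp1cc (-0.16 ± 0.02, adjusted p = 5.75e-05) and Ppp1cb (-0.09 ± 0.03, adjusted p = 0.0282), while Tox4 was higher (0.13 ± 0.04, adjusted p = 0.0153).

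Readers of H3K4 trimethylation split, with 2 of 13 higher and 3 lower in the untreated knockout (median -0.02). Those named were Sgf29 (0.14 ± 0.04, limma adjusted p = 0.00838), Phf2 (0.26 ± 0.08, adjusted p = 0.024), Bptf (-0.08 ± 0.03, adjusted p = 0.0294) and Ing2 (-0.19 ± 0.07, adjusted p = 0.031). Etoposide lowered 7 of the 13 and raised 2 in wild type, and lowered 4 and raised 1 in the knockout, where over all genes 13.5% were lower and 20.8% higher in wild type, and 10.5% and 14.5% in the knockout. Of 9 subunits of the PP2A phosphatase forms that BOD1 can inhibit, 3 were higher and none lower (median 0.05): Ppp2r5d (0.25 ± 0.02, adjusted p = 5.55e-06), Ppp2cb (0.15 ± 0.04, adjusted p = 0.00568) and Ppp2r5a (0.10 ± 0.03, adjusted p = 0.0195). Of the partners of BOD1L at replication forks, Fancd2 (-0.84 ± 0.03, adjusted p = 4.03e-09) and Brca2 (-0.39 ± 0.05, adjusted p = 2.9e-05) were lower and Rif1 was higher (0.20 ± 0.03, adjusted p = 0.000594). Repair genes were known to be lower in these libraries before that list was drawn up.

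Several of these calls near the threshold were lost when a library was left out. They were Men1 without untreated wild-type replicate 2 or 3 or untreated knockout replicate 1 or 2 (limma adjusted p up to 0.0827), Tox4 without untreated wild-type replicate 1 (0.0654) and Ppp1cb without untreated wild-type replicate 1 or 2 or untreated knockout replicate 2 (up to 0.0995). Phf2 was lost without untreated wild-type replicate 1 or 2 or untreated knockout replicate 2 (up to 0.0974), and Ing2 without untreated wild-type replicate 2 or 3 or untreated knockout replicate 2 or 3 (up to 0.103). Bptf was lost without untreated wild-type replicate 2 or 3 or untreated knockout replicate 1 or 2 (up to 0.0918), and on the depth-scaled coverage (0.308). Ppp2r5a was lost without untreated wild-type replicate 1 or 2 or untreated knockout replicate 1 or 3 (up to 0.0676), and with FPKM (0.0841) or median-of-ratios scaling (0.0661). Phf2 (0.063), Bptf (0.0554) and Ppp2r5a (0.0538) were also not called when only the compared groups were fitted.

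**Figure D5:**
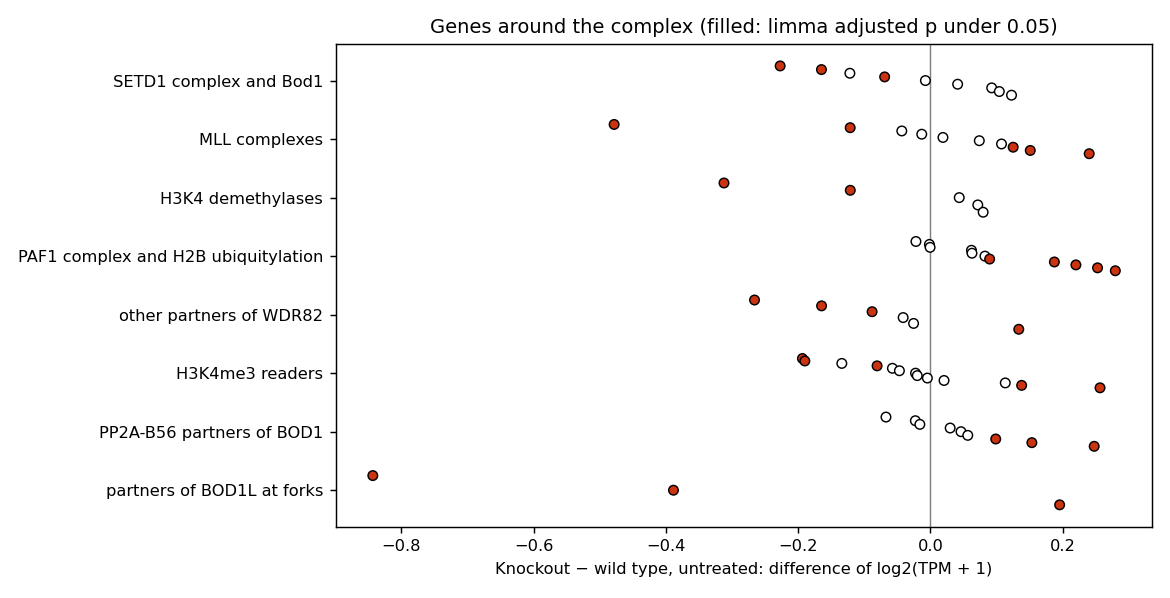
Difference of log2(TPM + 1) between the untreated knockout and untreated wild type (horizontal axis) for tested genes of 8 groups, Bod1l left out. Points are genes, filled where the limma adjusted p is under 0.05. The members lie between -0.23 and 0.12, Fancd2 is farthest to the left at -0.84, and no gene of the PAF1 list is filled to the left of 0.

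The libraries held an estimated 5.23 to 7.76 gigabases of aligned reads, read from coverage divided by FPKM. Of 8 stem cell markers 7 were found, with a summed level in wild type of 7805 to 7816 TPM without and 7357 to 7693 TPM with etoposide, and in the knockout of 7135 to 7252 and 6809 to 7127 TPM. The sum hides members that went different ways: Pou5f1 and Dppa5a were lower in the knockout with and without etoposide, while Nanog, Esrrb, Klf4 and Zfp42 were higher in the treated knockout (median log2 difference over the 7 of 0.02 without and 0.06 with etoposide). Of 6 markers of feeder fibroblasts, 4 were below the filter and the sum was 4.74 to 7.50 TPM. Of those below the filter, Postn, Lum and Dcn stood at 0 to 0.226 TPM, with 1 or 2 of them at 0 in every library of a group. Of the pair that passed the filter, Col1a1 was higher with etoposide in wild type (limma adjusted p = 0.0384) and in the knockout (0.0158), and Thy1 was lower in the knockout without (0.0219) and with the drug (0.0172). A sum of 5 p53 targets was 625 to 635 TPM without and 1311 to 1361 TPM with etoposide in wild type, and 940 to 1001 and 1590 to 1649 TPM in the knockout. Between the treated genotypes 4 of the 5 were higher, while Cdkn1a did not pass (log2 difference -0.05, limma adjusted p = 0.281). All 5 passed with a negative interaction, so on the log2 scale they rose less with etoposide in the knockout. Over all genes 1.23% were called for the interaction, in either direction. The stem cell, fibroblast and p53 genes thus differed between groups, and their part in the members' differences was not tested.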

How the data were processed

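Mouse embryonic stem cells gave 12 RNA libraries, 3 for each of 4 groups taken from the sample labels. Per the labels, total RNA was poly(A) selected, depleted of ribosomal RNA and made into strand-specific libraries. Per the submitters' processing notes, Trim Galore 0.6.6, cutadapt 3.4, HISAT2 2.2.1 and StringTie 2.2.1 were used with GRCm39. Whether counting used the strand, and how reads shared with near-identical copies were assigned, is not given in the sources used here. The TPM values that the authors deposited are StringTie abundances per gene, scaled by length and to a fixed total per library. The deposited FPKM values are scaled by length and mapped fragments, per the file headers. The coverage column deposited beside them holds each gene's mean read depth, unscaled for library size. No read counts were used, and no count model was fitted.

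Values were analysed as log2(TPM + 1) for the 14107 of 41079 genes with a mean of at least 1 TPM. limma 3.58.1 (R 4.3.3) fitted 4 group means with a trended variance (prior degrees of freedom 3.91, residual 8), and p-values were adjusted by Benjamini-Hochberg over all genes within each of the comparisons. An adjusted p under 0.05 was called. Fold changes on this scale understate those of low genes. The scripts were tested on simulated data. Depth in gigabases was read from coverage divided by FPKM, a value common to 28.1% of genes. Depth-scaled coverage is coverage divided by that depth and multiplied by the library's ratio of TPM to FPKM.

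The members and the lists of related genes were chosen with earlier results of these data known. All members were named, and from each list up to 4 genes called between the untreated genotypes with the lowest adjusted p. Of 12 names in the PAF1 list, 11 were found, since Skic8 and Wdr61 are names of the same gene. One gene of the lists is not reported here. Alternatives were a pseudocount of 0.1, no filter or a filter of 5 TPM, FPKM in place of TPM, quantile or median-of-ratios scaling, a block for the replicate number, fits of the compared groups only, robust variances, each library left out in turn, and depth-scaled coverage. Tables were handled with Python 3.11.15, numpy 2.4.6, pandas 2.3.3 and matplotlib 3.10.9.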

Additional observations from a re-analysis of the deposited data

How the results depend on the processing

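The number of members called stayed between 3 and 5 for the untreated comparison of genotypes (4 as reported), 6 and 7 for the treated one (6), 4 for etoposide in wild type in each alternative, and 3 and 5 for etoposide in the knockout (4), with 0 for the interaction throughout. Deviations of same-numbered libraries from their group means correlated weakly, at -0.06 to 0.08. Of 12 pairs, 6 correlated best with their own number, including every pair of the treated comparison of genotypes. Whether same-numbered libraries shared a culture or batch was not tested. With the replicate block, 5, 6, 4 and 4 members were called in the comparisons between groups, Cxxc1 being added between the untreated genotypes. The interaction count over all genes was 174 as reported, 196 with a pseudocount of 0.1 and 199 on depth-scaled coverage. It was 104 with no filter, 102 with quantile normalization and 93 to 131 when a library was left out. The remaining alternatives gave 122 (replicate block) to 175 (filter of 5 TPM).

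Signs turned for the members below, none of them called as reported. With FPKM, Wdr82 between treated genotypes became -0.0172, Rbbp5 under etoposide in wild type -0.0104 and Setd1a under etoposide in the knockout -0.0026. With median-of-ratios scaling, the etoposide values were -0.0112 for Bod1 and -0.0241 for Rbbp5 in wild type and -0.0049 for Setd1a in the knockout. With quantile normalization, Wdr82 between treated genotypes was -0.0026, and for etoposide Rbbp5 in wild type was -0.0057 and Ash2l in the knockout 0.0079. On depth-scaled coverage, chosen after seeing the data, the untreated genotype value of Ash2l turned to 0.0863 and was called, the etoposide value of Bod1l in wild type was 0.005 and the Rbbp5 interaction -0.027. In fits without a library, values between untreated genotypes ran from -0.0348 to 0.0075 for Setd1a and -0.1952 to 0.0216 for Ash2l, and between treated genotypes from -0.021 to 0.0199 for Wdr82 and -0.0936 to 0.2062 for Ash2l. For etoposide in wild type they ran from -0.0232 to 0.0244 for Rbbp5, -0.0285 to 0.0541 for Bod1 and -0.0507 to 0.0161 for Bod1l. For etoposide in the knockout they ran from -0.0125 to 0.0299 for Setd1a, -0.177 to 0.1092 for Ash2l, -0.0415 to 0.0023 for Bod1 and -0.0398 to 0.0208 for Cxxc1. The Bod1 interaction ran from -0.0711 to 0.0115. The cause was not tested.

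The tables give 1 value per gene and no read counts, so transcripts, the deleted exons and counting error were not analysed. With 3 libraries a group, differences of about 0.1 lie near the threshold.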
